A study of Mus musculus with 2 samples.

Results

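The reelin pathway genes Reln, Dab1, Lrp8, Vldlr and Pafah1b1 were examined in a list of accessible regions from embryonic mouse striatum. All peaks that overlapped the RefSeq span of 1 of these 5 genes, or the 50 kb on either side of it, were taken as members. There were 118 such peaks of 87174 in the list (0.135%): 66 at Dab1, 27 at Lrp8, 16 at Reln, 7 at Pafah1b1 and 2 at Vldlr. No peak fell in more than 1 of the 5 loci. The genes were chosen for their shared pathway and not for their peaks, although earlier results of these data were known.

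The data came from single-nucleus ATAC-seq, an assay that inserts sequencing adapters into open chromatin with a transposase and barcodes the DNA of single nuclei in droplets. The tissue was striatum of wild-type embryos at E14.5, with a strain background of C57BL/6J and CD1. The 2 libraries form 1 group, with no treatment and no second genotype, and their deposited result is a single list of peak positions. Values per library or per nucleus were not analysed here, so read depth is unknown, there is no replicate error, and no difference below was tested.

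Reelin is a large glycoprotein secreted into the extracellular space that guides the positioning of migrating neurons in the forebrain. It binds the lipoprotein receptors encoded by Vldlr and Lrp8 (also called ApoER2), and receptor binding leads Src family kinases to phosphorylate Dab1, the cytoplasmic adaptor that docks on the receptor tails. Pafah1b1 encodes Lis1, a regulator of the microtubule motor dynein that is needed for nuclear movement in migrating neurons. Mice that lack reelin, Dab1 or both receptors share a phenotype of misplaced neurons, named reeler after the reelin mutant.

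The start sites of the 5 genes were the first point of reference, because each was accessible. RefSeq promoter windows (build GRCm38.p6, which mm10 names) were found for all 5 genes and gave 9 start sites. Each window runs from 250 bases before the start to 50 bases after it. The windows printed here are those that differ most in composition between alternative starts of 1 gene, with that of Reln. Capitals mark matches, on either strand, to the homeodomain core TAATTA, the Meis core TGACAG, the GC box GGGCGG, the CCAAT box CCAAT, the TATA box TATAAA and the CRE TGACGTCA. The Nrf1 motif was searched too.
Reln start, chr5:22344656-22344955, minus strand: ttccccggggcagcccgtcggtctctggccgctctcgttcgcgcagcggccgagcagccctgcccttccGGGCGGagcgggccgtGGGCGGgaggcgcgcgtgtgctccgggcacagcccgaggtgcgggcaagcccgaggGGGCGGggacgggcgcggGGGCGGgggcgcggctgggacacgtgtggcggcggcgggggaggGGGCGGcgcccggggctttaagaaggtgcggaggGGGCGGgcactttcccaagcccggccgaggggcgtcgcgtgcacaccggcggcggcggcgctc
Dab1 start 1, chr4:103619250-103619549, plus strand: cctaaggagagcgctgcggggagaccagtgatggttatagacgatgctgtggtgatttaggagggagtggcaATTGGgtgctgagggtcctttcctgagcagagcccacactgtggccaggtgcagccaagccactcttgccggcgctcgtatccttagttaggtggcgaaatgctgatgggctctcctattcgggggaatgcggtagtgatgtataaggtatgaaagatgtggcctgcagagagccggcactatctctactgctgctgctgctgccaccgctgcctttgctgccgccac
Dab1 start 2, chr4:104367288-104367587, plus strand: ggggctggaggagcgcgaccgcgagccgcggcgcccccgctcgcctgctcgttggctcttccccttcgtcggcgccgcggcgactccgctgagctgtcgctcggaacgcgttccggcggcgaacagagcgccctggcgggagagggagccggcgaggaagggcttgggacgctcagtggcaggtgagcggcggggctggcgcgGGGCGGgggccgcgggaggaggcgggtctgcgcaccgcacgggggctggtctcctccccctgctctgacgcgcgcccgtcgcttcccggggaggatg
Lrp8 start 1, chr4:107802635-107802934, plus strand: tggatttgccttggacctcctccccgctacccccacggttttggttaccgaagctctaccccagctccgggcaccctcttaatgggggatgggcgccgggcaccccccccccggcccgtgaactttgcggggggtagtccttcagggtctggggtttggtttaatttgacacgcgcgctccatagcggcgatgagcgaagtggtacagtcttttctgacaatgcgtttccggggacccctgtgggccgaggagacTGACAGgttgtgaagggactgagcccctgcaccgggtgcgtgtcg
Lrp8 start 3, chr4:107830703-107831002, plus strand: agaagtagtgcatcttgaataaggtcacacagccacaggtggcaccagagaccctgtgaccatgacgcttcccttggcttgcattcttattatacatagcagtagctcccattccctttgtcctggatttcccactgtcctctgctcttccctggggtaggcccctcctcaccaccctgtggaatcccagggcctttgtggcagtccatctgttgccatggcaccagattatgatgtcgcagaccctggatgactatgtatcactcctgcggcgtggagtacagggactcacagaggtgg
Vldlr start 1, chr19:27216234-27216533, plus strand: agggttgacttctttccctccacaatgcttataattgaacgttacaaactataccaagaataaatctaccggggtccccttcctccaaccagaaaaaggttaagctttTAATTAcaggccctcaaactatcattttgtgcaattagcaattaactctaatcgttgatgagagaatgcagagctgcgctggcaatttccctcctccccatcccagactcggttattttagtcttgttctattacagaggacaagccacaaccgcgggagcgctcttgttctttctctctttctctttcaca
Vldlr start 2, chr19:27216770-27217069, plus strand: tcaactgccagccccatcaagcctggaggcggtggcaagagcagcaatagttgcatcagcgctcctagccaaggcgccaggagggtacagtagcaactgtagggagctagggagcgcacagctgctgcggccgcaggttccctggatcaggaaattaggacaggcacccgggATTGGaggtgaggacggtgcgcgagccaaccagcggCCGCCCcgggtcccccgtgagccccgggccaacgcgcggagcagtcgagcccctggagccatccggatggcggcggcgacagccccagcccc

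All 9 listed starts of the 5 genes lay under a peak, and these 9 starts shared 8 peaks. Across protein-coding genes 63.4% of 21263 listed starts lay under a peak, and 66.6% of 17492 genes had a peak within 1000 bp of at least 1 listed start. With 9 starts in 5 genes, of which some share a peak, this count is a description of the loci. The peaks over the members' starts were 1139 to 3866 bp wide, with a median of 3032 bp over the 8 peaks. Over the 13480 starts of protein-coding genes that lay under a peak, the median width was 1784 bp (quartiles 1346 and 2435 bp). That median counts a peak once for each start under it, while the members' median counts each peak once. The widest start peak was at Vldlr and the narrowest at the first start of Dab1.

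Base composition differed widely between these accessible starts. The Reln window held 47 CG dinucleotides and 80.7% G and C, and the second start of Dab1 held 46 and 77.3%. Both lay above the 98 percentile of all listed windows for CG count (98.3 and 98.03). The third start of Lrp8 held 4 CG dinucleotides, the second start of Lrp8 5, and the first start of Vldlr 8 with 43.0% G and C. The median was 21 CG dinucleotides for starts under a peak and 3 for starts outside peaks. In the class with 0 to 4 CG dinucleotides, 8.42% of 6035 starts lay under a peak, against 99.1% of 3283 starts with 30 or more. The third start of Lrp8 was thus in the class least often accessible, and it lay 466 bp from the downstream edge of a peak of 3396 bp. The other starts held 12 CG dinucleotides at the first start of Dab1, 21 at the first of Lrp8, 23 at the second of Vldlr and 27 at Pafah1b1.

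**Figure D1:**
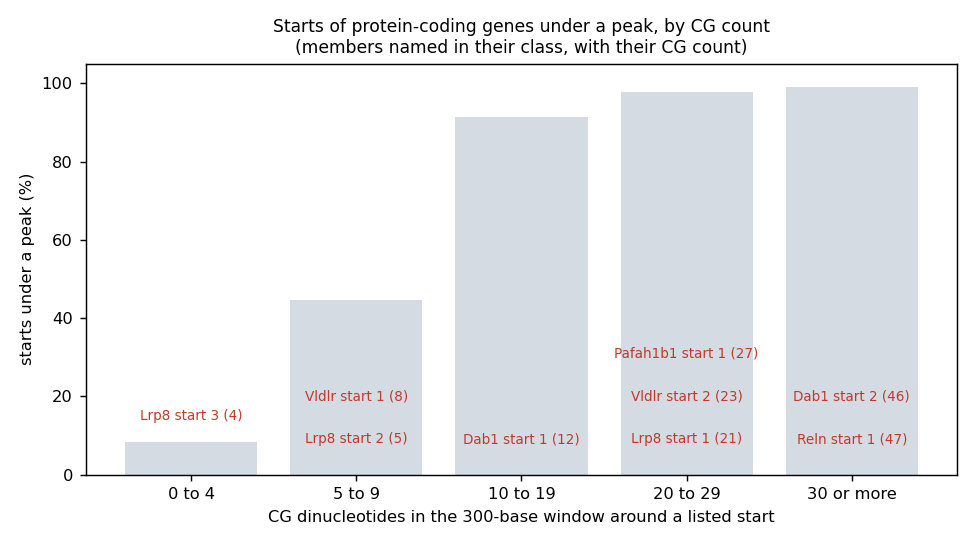
Bars give the share (%) of listed starts of protein-coding genes that lay under a peak, by the number of CG dinucleotides in the 300-base window around the start. The 9 starts of the 5 genes are named at their class with their CG count, from 4 at the third start of Lrp8 (class share 8.42%) to 47 at Reln (class share 99.1%).

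The short motifs searched were unevenly spread over the 9 windows. The Reln window held 6 GC boxes, while the second starts of Dab1 and Vldlr held 1 each, and 46.2% of all 21263 windows held at least 1. TAATTA, the core read by many homeodomain factors, was found at 1 member start, the first of Vldlr, and in 4.53% of all windows. TGACAG, the Meis core, was found once at the first start of Lrp8 and once at the second, and in 18.7% of all windows. A CCAAT box was present at the first start of Dab1 and the second of Vldlr (38.2% of all windows). TATAAA (12.6% of all windows), TGACGTCA (2.23%) and the Nrf1 motif (6.38%) had no match at any of the 9 starts. The E-box CANNTG, left in lower case above, was found at 6 of the 9 (69.0% of all windows). It overlapped the CCAAT box at the first start of Dab1 and the Meis core at the second start of Lrp8. A match gives letters only and does not show that a factor binds.

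Reln, which encodes the ligand, had 1 peak of 2249 bp over its single listed start and few wide peaks elsewhere. The gene spans 460252 bp on chromosome 5 (chr5:21884454-22344705) and is transcribed from the minus strand. The start peak (chr5:22343610-22345859) reached 1154 bp upstream and 1095 bp downstream of the start. Of the 16 peaks in the locus, 13 lay in the gene away from the start and 2 in the downstream flank, and the 50 kb upstream of the gene held none. The 13 included 2 of similar width, 1271 bp (chr5:22282081-22283352), 61.4 kb into the gene, and 1259 bp (chr5:22190874-22192133), 152.6 kb into it. The other 11 were 20 to 540 bp wide.

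Along Reln the peaks were concentrated in the middle of the gene. The longest run of peaks with gaps of at most 50 kb, 102.6 kb from 22093151 to 22195710, held 9 of the 16 peaks. Its 8.78 peaks per 100 kb is high by construction, because the run was chosen and bounded by its own peaks. These peaks were narrow, with a median of 327 bp. With the gene divided into 5 parts of equal length, the middle part held 6 peaks, or 6.52 per 100 kb. Downstream of the run followed 143.7 kb without a peak (21949462 to 22093151). That is 31.2% of the gene and the longest such stretch in any of the 5 loci. The last 92.05 kb of the gene held 2 peaks, of 178 and 20 bp. In the downstream flank, the peak of 1511 bp (chr5:21865295-21866806) lay at the start of the neighbour Slc26a5, which encodes prestin, the motor protein of outer hair cells. The median width of the 16 peaks was 280.5 bp, the lowest of the 5 loci, and 4 of them were wider than 565 bp, the median of all peaks.

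Lrp8, a reelin receptor gene, was the most densely covered of the 5. It spans 74641 bp on chromosome 4 (chr4:107802200-107876840, plus strand), and 17 peaks overlapped the gene, or 22.8 per 100 kb. Peaks covered 29.8% of its bases, against 1.44% at Reln, 3.56% at Dab1, 7.93% at Vldlr and 3.54% at Pafah1b1. All 3 listed starts lay under separate peaks. The first was under a peak of 3289 bp (chr4:107801210-107804499), the second, 20.3 kb downstream, under one of 1354 bp (chr4:107822673-107824027), and the third, 28.1 kb downstream of the first, under one of 3396 bp (chr4:107828023-107831419). Of the 479 protein-coding genes with 3 listed starts, 47.4% had all 3 under a peak. The peak at the second start also lay at the listed start of Lrp8os2, a non-coding RNA gene whose span lies within Lrp8, and the 2 cannot be told apart there. In all, 6 of the 17 peaks overlapped the span of Lrp8os2. The peak at the first start also overlapped the span of Lrp8os3, another non-coding RNA gene.

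The widest peak of all 5 loci was inside Lrp8 and not at a listed start. It was 5612 bp wide (chr4:107833520-107839132), began 2.57 kb downstream of the third start, and ranked 413 by width among all peaks. It was the only member among the broadest 1% of peaks (over 4479 bp), and 3.95% of protein-coding genes had such a peak within 1000 bp of their span. Another wide peak, of 2485 bp, ended 1.545 kb before the second start. The next in width inside the gene was one of 1852 bp, 2.525 kb after the first start.

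The peaks of Lrp8 were confined to part of the gene. The 17 peaks lay within 45.4 kb, in which 51.2% of bases were covered, and the remaining 30.3 kb up to the gene end (107846584 to 107876840) held none. Between the second start and the third, a distance of 7.79 kb, 5 peaks covered 77.6% of bases. Neighbouring peaks in the locus were separated by a median of 1.23 kb, against 10.7 kb over the whole list. The flanks added 10 peaks, 6 upstream and 4 downstream. Of these, 1 lay at the start of each of Magoh, which encodes a core protein of the exon junction complex, of Czib, of Cpt2, a mitochondrial fatty acid oxidation gene, and of the non-coding RNA genes Gm12907 and 4933424M12Rik.

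Vldlr, the other reelin receptor gene, had 1 peak over its whole span. The gene covers 37752 bp on chromosome 19 (chr19:27216480-27254231, plus strand), and the peak of 3866 bp (chr19:27215606-27219472) lay over both listed starts, which are 0.536 kb apart. It reached 878 bp upstream of the first start and 2452 bp downstream of the second, and its width was at the 92.4 percentile of start peaks. The remaining 34.8 kb, 92.1% of the gene, held no peak. The 1 other peak of the locus was 427 bp wide and lay 35.5 kb upstream. A non-coding RNA gene, Gm35438, spans the whole Vldlr gene and none of its 3 listed starts had a peak within 1000 bp.

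The receptor genes therefore stood at opposite ends of the 5 in peaks per length of locus, while both had accessible starts. The Lrp8 locus held 15.5 peaks per 100 kb and the Vldlr locus 1.45. The widest start peaks were similar in size, 3396 bp at Lrp8 and 3866 bp at Vldlr. Lrp8 had 3 start peaks, 14 further peaks over the gene and 10 in the flanks, and Vldlr had 1 start peak, no other over the gene and 1 in the flanks. With 1 peak list the difference could not be tested.

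**Figure D2:**
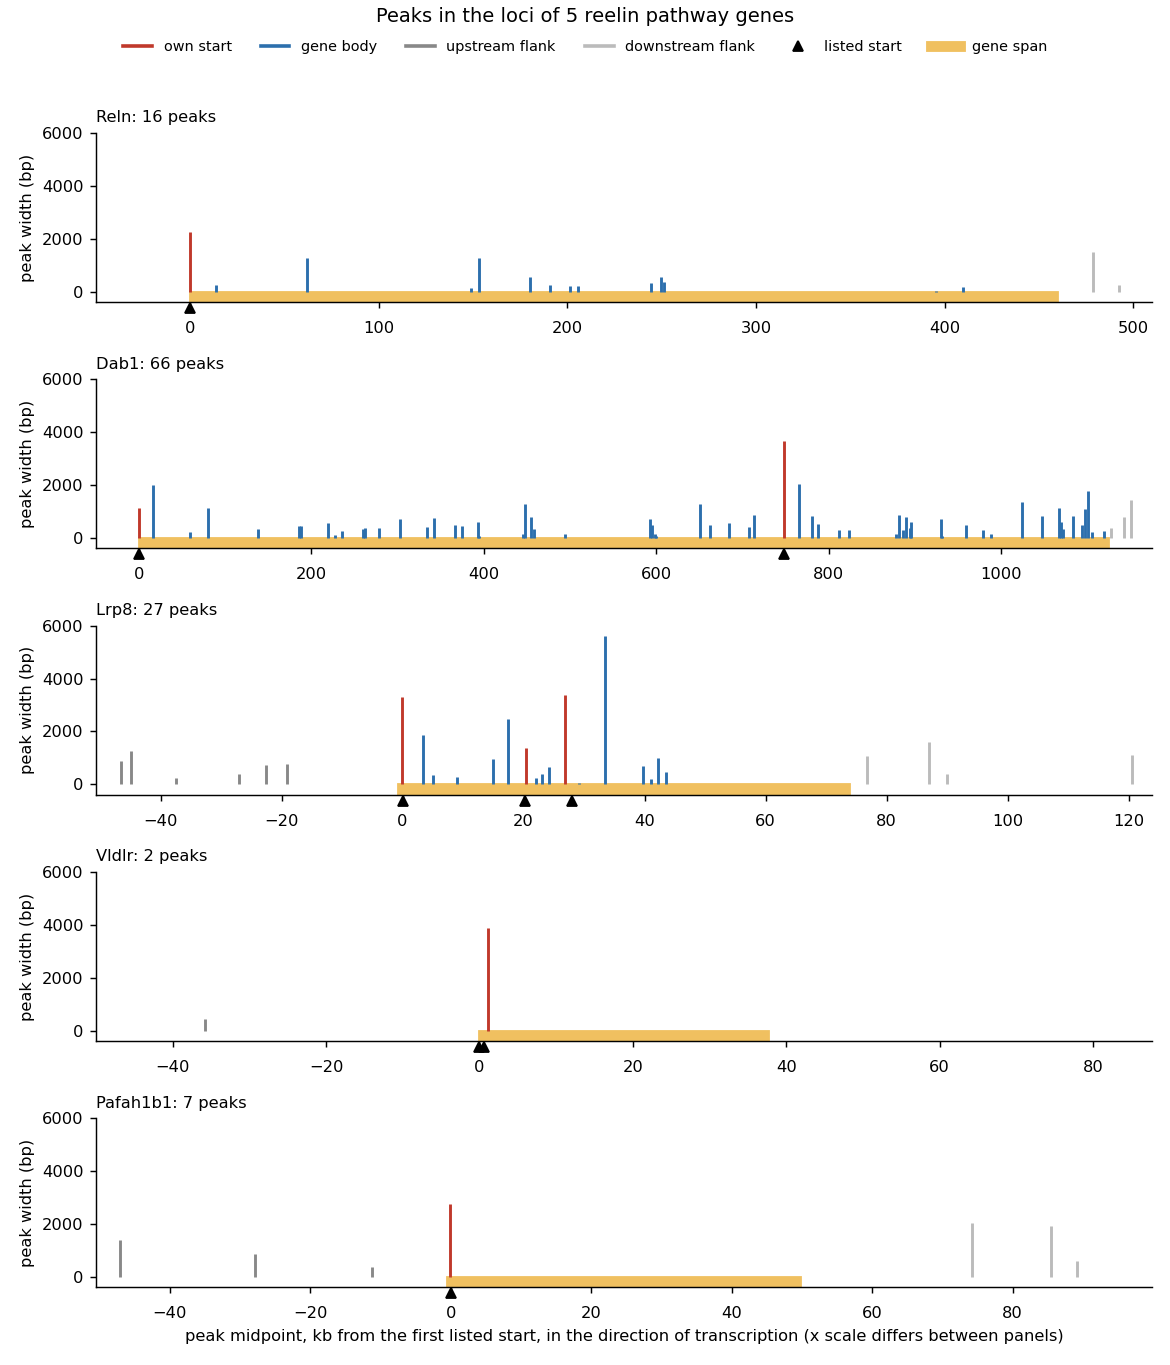
Each vertical line is 1 peak, placed by its midpoint in kb from the first listed start in the direction of transcription, with its width in bp as height. Panels differ in x scale. Lrp8 shows its 17 gene peaks in the first part of the gene, Vldlr and Pafah1b1 show 1 gene peak each, at the start, and Dab1 shows 63 along its span.

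Dab1, the intracellular adaptor, held most of the members and is the longest of the 5 genes. It spans 1125345 bp on chromosome 4 (chr4:103619500-104744844, plus strand) and ranks 41 by length among 21774 protein-coding genes. It was overlapped by 63 peaks, and 3 more lay in the downstream flank and none in the upstream flank. Both listed starts, 748.0 kb apart, were accessible, as in 60.2% of 2074 protein-coding genes with 2 listed starts. The first lay under a peak of 1139 bp (chr4:103619224-103620363), at the 14.6 percentile of start peak widths, and the second under one of 3666 bp (chr4:104366146-104369812), at the 91.2 percentile. The narrower of these also lies near the listed start of the non-coding RNA gene Gm36604.

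Each Dab1 start was followed by a second wide peak about 16 kb downstream. After the first start, a peak of 2016 bp (chr4:103635116-103637132) began at 15.6 kb. After the second start, a peak of 2035 bp (chr4:104383914-104385949) began at 16.4 kb. These were the widest peaks of the locus after the one at the second start. The next was a peak of 1762 bp near the gene end (chr4:104718681-104720443). The pairing of distances was noticed after the positions had been seen.

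Peaks were spread along the whole of Dab1, with more per length in the 3′ part. Between the starts there were 34 peaks in 748.0 kb, or 4.55 per 100 kb, covering 2.53% of bases. From the second start to the gene end there were 29 in 377.3 kb, or 7.69 per 100 kb, covering 5.66%. Divided into 5 parts of equal length from the 5′ end, the gene held 8, 14, 9, 15 and 17 peaks. The longest stretch without a peak was 97.8 kb (104113658 to 104211437), or 8.69% of the gene. Widths ranged from 13 to 3666 bp with a median of 476.5 bp, and 28 of 66 peaks were wider than 565 bp. In the downstream flank, 1 peak of 1437 bp lay within C8b, a complement component gene whose own listed start had no peak within 1000 bp.

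Pafah1b1, which encodes Lis1, resembled Vldlr in having its gene peak at the start alone. It spans 50436 bp on chromosome 11 (chr11:74673949-74724384, minus strand). The peak over its listed start was 2775 bp wide (chr11:74722600-74725375), at the 81.7 percentile of start peak widths. The other 48.7 kb, 96.5% of the gene, held none. Among 1424 protein-coding genes of the same length class (36.0 to 57.3 kb, which also holds Vldlr) with a peak at a start, 34.6% were overlapped by 1 peak only, so this pattern was common.

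The other 6 peaks of the Pafah1b1 locus were in the flanks, and some belonged to neighbours. Downstream, a peak of 2028 bp (chr11:74648693-74650721) lay at the start of Cluh, which encodes an RNA-binding protein, and peaks of 1908 and 604 bp lay over the gene Ccdc92b. Upstream, a peak of 1396 bp lay at the start of Mettl16, an RNA methyltransferase gene. The remaining upstream peaks, of 390 and 878 bp, were 11.1 and 27.4 kb from the Pafah1b1 start, and the first of these overlapped the non-coding RNA gene Gm40198.

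**Figure D3:**
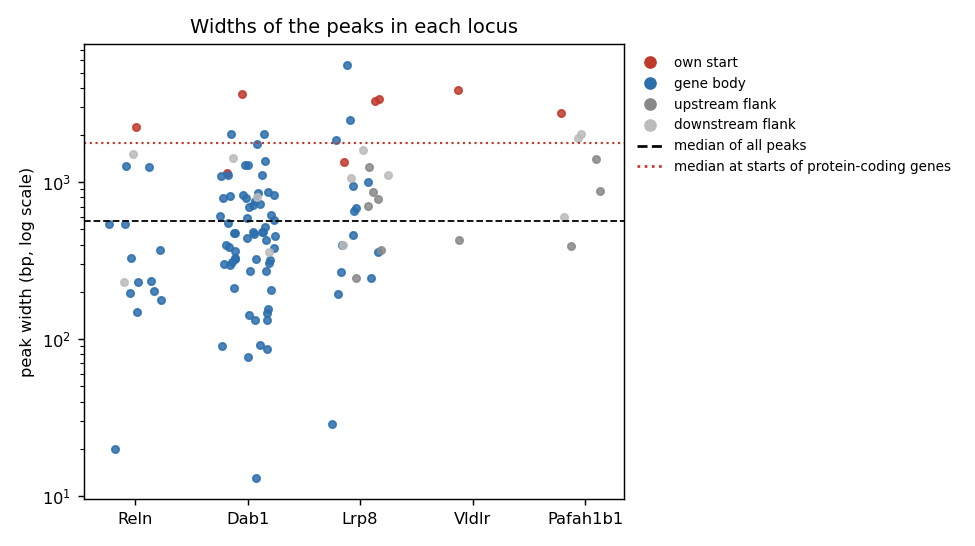
Width of each of the 118 peaks in bp on a log scale, by locus, coloured by position. The 8 peaks at own starts (1139 to 3866 bp) all lie above the median of the 118, 528.5 bp, and at Lrp8 the widest point, 5612 bp, is a peak in the gene body.

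Over the 118 peaks, position went with width. The 8 start peaks had a median width of 3032 bp, the 88 other peaks over the genes 457 bp (13 to 5612 bp), and the 22 flank peaks 836 bp (231 to 2028 bp). Dab1 gave 61 of the 88. The flank peaks included those at starts of neighbouring genes, such as 2028 bp at Cluh, 1611 bp at Czib and 1511 bp at Slc26a5. These were not separated from the other flank peaks, so the flank median mixes both kinds. The median of all 118 was 528.5 bp, close to the 565 bp of the whole list (quartiles 363 and 1135 bp). Of the 118, 47.5% were wider than the list's median. A single member, of 13 bp in Dab1, was narrower than 20 bp, and 1.61% of all peaks were. Exon positions were not used here, so peaks in a gene body could not be divided into exonic and intronic ones.

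Peak density was then set beside protein-coding genes of like length, in 10 classes. At Lrp8 the 15.5 peaks per 100 kb of locus lay at the 98.6 percentile of its class (median 4.34), and 29 of 2177 loci were denser. Counted over the gene alone, 9 of 2177 were denser. Dab1, with 5.39 per 100 kb, lay at the 67.3 percentile and Reln, with 2.86, at the 35.8 percentile of the longest class (median 3.92). That class is broad, with gene lengths of 108.9 to 2390 kb. Against the genes nearest in length, Dab1 lay at the 81.8 percentile and Reln at the 45.5 percentile. Pafah1b1 had 4.65 per 100 kb (53.5 percentile) and Vldlr 1.45 (14.7 percentile) beside a class median of 4.37. In peaks per length of locus the members thus ranged from the sparse to the dense end of genes of their length. Other measures gave other positions for the 2 genes that held 1 peak each. Counted over the gene alone, peak density lay at the 38.7 percentile at Vldlr and at the 18.1 percentile at Pafah1b1. By the share of the gene's bases under peaks, Vldlr, with 7.93%, lay at the 84.5 percentile and Pafah1b1, with 3.54%, at the 54.7 percentile (class median 3.15%). Vldlr thus stood low by number of peaks in the locus and high by bases covered over the gene alone, which came from the single peak at its start. By accessible bases per length of locus, Vldlr lay at the 35.9 percentile, so it was not high by that measure.

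**Figure D4:**
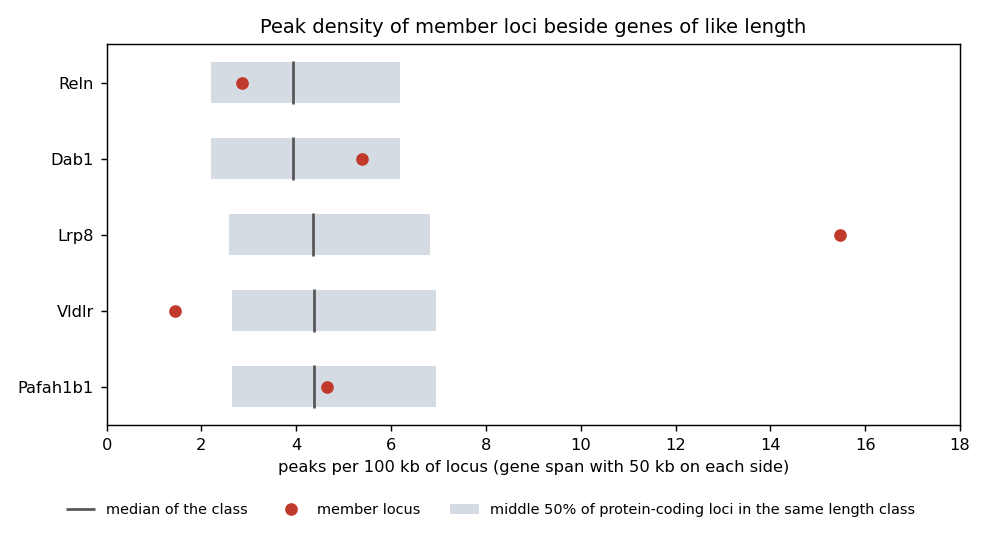
Points give peaks per 100 kb of each locus, and grey bars the middle 50% of protein-coding loci of the same length class with the class median as a line. Lrp8 (15.5) lies to the right of its bar, Vldlr (1.45) to the left, and the other 3 loci within theirs.

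The 50 kb limit of the loci left out further peaks. With a flank of 100 kb the counts were 71 at Dab1 (66 with 50 kb), 36 at Lrp8 (27) and 18 at Reln (16). They were 11 at Pafah1b1 (7) and 6 at Vldlr (2). At Lrp8 the last peak inside the limit was 45.4 kb from the gene (868 bp wide) and the first outside was 50.3 kb away (278 bp wide). At Pafah1b1 a peak of 1444 bp lay outside at 53.5 kb. The nearest excluded peaks of Reln were 97.1 and 126.6 kb from the gene, those of Dab1 60.8 and 64.5 kb, and those of Vldlr 67.7 and 110.2 kb.

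Other genes of the pathway were accessible at their ends in nearly all cases. Of 53 genes, 51 had a peak within 1000 bp of either gene end, beside 67.3% of 21774 protein-coding genes. The 2 without one were Stk25, which encodes a kinase that opposes reelin and Dab1 signalling in neuronal polarity, and Dab2, a relative of Dab1 that acts in endocytosis. Both had a peak near a listed start inside the gene, at 1 of 1 starts and 1 of 2 starts. The median percentile of peak density within the length class was 67.6 over the 53 genes. Many of the 53 are broadly expressed, and the share was not compared with that of other lists.

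By role, the kinases and adaptors that act on or after Dab1 held the single locus richest in peaks, but not the highest group medians. Their median was 10 peaks and the 67.6 percentile, against 11 and 81.1 for receptor turnover and partners. Fyn, the Src family kinase that phosphorylates Dab1, had 42 peaks, 35 of them over the gene, and lay at the 98.6 percentile of its length class. Src and Akt1 had 20 each (97.5 and 98.8 percentile), 7 of them over the gene, and Akt1 carried a peak of 10149 bp. Yes1, another Src family kinase, had 4 peaks and lay at the 19.9 percentile, so the kinases differed among themselves. Counts per locus are not adjusted for gene length, and the median over all protein-coding loci was 6.

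Among genes of receptor turnover and receptor partners, Cdh2, which encodes N-cadherin, had 26 peaks, and Ap2a1, an endocytic adaptor gene, and Itga3, an integrin gene, had 20 each. Of these, 23 lay over the gene at Cdh2, 3 at Ap2a1 and 4 at Itga3. The percentiles of these 3 loci within the length class were 87.4, 98.4 and 98.0. All 11 genes of this group had a gene-end peak. Mylip, the ubiquitin ligase that degrades Vldlr and Lrp8, had 7 (55.7 percentile). The ephrin genes Efnb2 and Efnb1 carried peaks of 8872 and 8113 bp. Of the genes that process reelin, the convertase gene Furin had 12 peaks, and the metalloproteinase genes Adamts2 and Adamts3 had 10 and 8. Of these, 2, 4 and 6 lay over the genes. Within the length class Furin lay at the 82.8 percentile, Adamts2 at the 41.5 and Adamts3 at the 31.6.

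For the degradation of Dab1, Socs7 had 20 peaks (98.2 percentile of its length class) and Rnf7 10 (76.1). Cul5, the ubiquitin ligase scaffold, had 6 (43.0), while Socs6 had 1 (9.55). Over the gene itself each of these 4 had 1 peak, so their counts differed by flank peaks. Among partners of Lis1 and of neuronal migration, Cdk5 had 17 peaks (95.9 percentile), and its activator genes Cdk5r1 and Cdk5r2 16 (95.4) and 12 (86.3). Dcx, the microtubule-associated doublecortin gene, had 5 (27.1). Over the gene itself Cdk5 had 3, Cdk5r1 and Cdk5r2 1 each and Dcx 5. Cdk5, Cdk5r1 and Cdk5r2 each carried a peak of at least 5030 bp. Of the family relatives of the receptors, Lrp1 and Lrp5 had 17 peaks each (88.6 and 85.2 percentile) and Lrp6 15 (79.1). Of the regulators of Reln expression, Tbr1 and Pax6 had 6 peaks each (42.4 and 47.5 percentile). Pax6 carried a peak of 17055 bp, the widest at any of the 53 genes. Over the gene itself the counts were 11 at Lrp1, 7 at Lrp5, 6 at Lrp6, 4 at Tbr1 and 2 at Pax6. Flank peaks of these genes were not assigned to neighbouring genes.

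**Figure D5:**
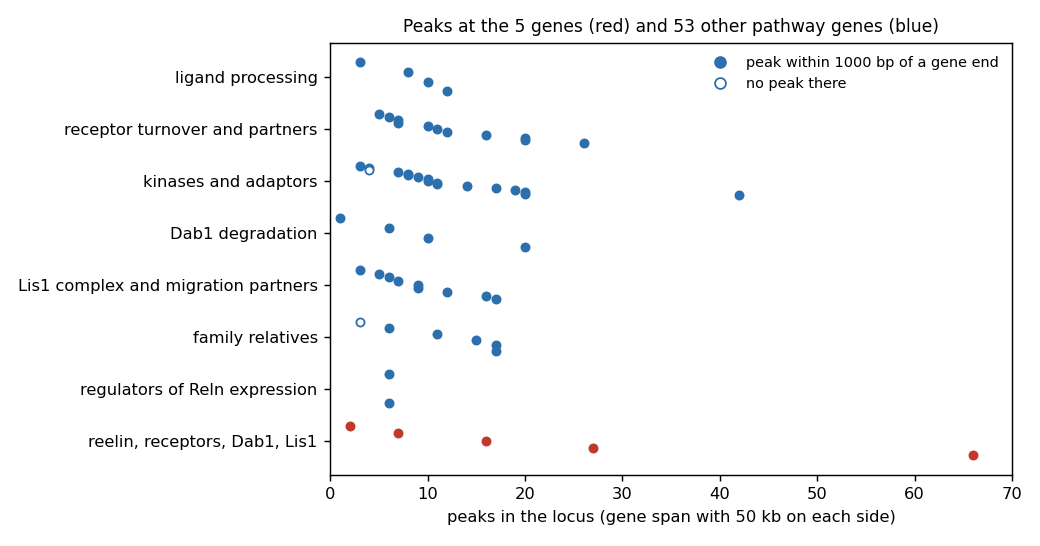
Each point is 1 gene, placed by the number of peaks in its locus, with the 5 genes described here in red and 53 others in blue by role. Open points mark Stk25 and Dab2, which had no peak within 1000 bp of a gene end, and the blue point farthest to the right is Fyn with 42 peaks.

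Cell type markers were checked for the tissue label and for cells known to make reelin. A gene-end peak was found at 10 of 10 genes of striatum and ganglionic eminence, Dlx1, Dlx2, Gad1 and Meis2 included, beside 67.3% of all protein-coding genes. It was also found at 7 of 7 markers of Cajal-Retzius cells, the reelin-secreting cells of the cortical margin, at 6 of 6 of the cortical excitatory lineage, at 8 of 8 of interneurons and at 2 of 4 of blood and vessel. The 2 without one were Hbb-bt, an adult beta-globin gene with no peak in its locus, and Pecam1, an endothelial adhesion gene. Pecam1 had no listed start to check, but held 13 peaks in its locus, 5 of them over the gene. The median percentile of peak density over the 4 blood and vessel genes was 81.8, so the gene-end count does not show these loci to lack peaks. Markers of striatum, cortex, interneurons and Cajal-Retzius cells all had such a peak, so this count does not tell these cell types apart. The list does not assign peaks to nuclei, so which cells carried the Reln start peak was not tested.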

How the data were processed

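Single-nucleus ATAC-seq was made from 2 libraries of 1 group. The submitters' processing notes name build mm10 with the tools Cell Ranger ATAC 1.2.0 and Signac, but not their roles. The peak caller, its threshold, pooling of the libraries and handling of doublets are not given in the sources used here. The deposited list holds peak positions alone, each a line with chromosome, start and end, with no count or score. Whether starts count from 0 or 1 is unstated, so an edge may differ by 1 base. Neighbouring peaks lay at least 501 bp apart, so closer regions may have been joined before deposit.

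Genes came from RefSeq (GRCm38.p6): 49595 genes on main chromosomes, 21774 of them protein-coding, after entries on scaffolds and repeated symbols were left out. Promoter windows were available for 17492 protein-coding genes. An overlap of 1 bp counted. Width is end minus start. Percentiles split ties evenly and compare a locus with genes of the same of 10 length classes. Counting was tested on simulated data. Python 3.11.15 and pandas 2.3.3 were used.

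The members and lists were chosen with earlier results of these data known. Every member was described alike. Within each locus the start peak, the widest peaks, the longest stretch without a peak and the protein-coding neighbours were named, and of other pathway genes up to 3 per role with most peaks and those without a gene-end peak. Genes and peaks named beyond these were chosen after their values were seen. Of the pathway list, 53 genes are described, and other entries are not reported here. No test was made, since there is 1 group and 1 list.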

Additional observations from a re-analysis of the deposited data

How the results depend on the processing

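All 9 member starts kept a peak under each alternative, but no alternative could have removed one. Each start base lay under a peak of 1139 to 3866 bp, wider than the median of all peaks, 565 bp. The pathway list had 49 to 51 genes with a gene-end peak. Of 111 alternative values, 69 stayed within 1.5 times a count, length or width, or within the binomial interval of a percentile, and 42 did not.

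Without flanks the counts were 17 at Lrp8, 1 at Vldlr and 1 at Pafah1b1, where accessible length was 1.78 kb. With a flank of 10 kb Vldlr had 1 peak and Pafah1b1 1 (2.77 kb), and with 100 kb Vldlr had 6 and Pafah1b1 11. Counting only peaks wider than the median left 28 at Dab1, 17 at Lrp8, 4 at Reln (6.29 kb) and 1 at Vldlr. Joining peaks under 1 kb apart left 15 at Lrp8. Without gene-end peaks the median width at Vldlr was 427 bp, that of 1 peak.

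The percentile of peak density moved with the comparison. With no length classes it was 57.3 at Dab1, 97.7 at Lrp8, 50.7 at Pafah1b1, 33.4 at Reln and 21.3 at Vldlr. Against the genes nearest in length it was 81.8 at Dab1, 45.5 at Reln and 9.7 at Vldlr. By accessible bases it was 57.6 at Dab1, 73.9 at Pafah1b1, 26 at Reln and 35.9 at Vldlr. By peaks wider than the median it was 62.1 at Dab1, 73.9 at Pafah1b1, 19.1 at Reln and 17.7 at Vldlr. Flanks of 0, 10 and 100 kb gave 18.1, 12.6 and 49.6 at Pafah1b1, 40.2, 38.5 and 32.6 at Reln, and 38.7, 23.4 and 23.7 at Vldlr. A flank of 0 gave 99.6 at Lrp8. The causes of these shifts were not tested. Keeping scaffold genes, an alternative chosen after the data had been seen, moved no percentile beyond its interval. The lowest percentile of Lrp8 under these alternatives was 97.7, and the highest of Vldlr was 38.7, while by the share of bases covered over the gene alone Vldlr lay at 84.5.

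Leaving out a replicate was not run, since the libraries are not separate in the list. No paired analysis was possible because there is 1 group. Depth is unknown, so a stretch without a peak means only that no peak was called there.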
